A study of Mus musculus with 6 samples.

Results

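The interferon response and antigen presentation genes examined here are 34 genes chosen by symbol from a list, 26 of them induced by interferon and 8 of the MHC pathway. Of the 34, 32 were measured by a probe set that carries their symbol alone (24 interferon-induced, 8 MHC pathway), among 18193 genes in all. Isg15 was left out because its probe set names a further gene, and Ifi44 because no probe set named it in the annotation used here. Each gene was read from its probe set with the highest mean signal over the 6 arrays. RNA came from Ba/F3 cells, an interleukin-3-dependent mouse haematopoietic line of BALB/c background that the labels describe as leukemia cells, kept in medium with WEHI-3 supernatant. All samples carried PAX5-KIDINS220 (P-K220), a fusion of the B-lineage transcription factor PAX5 with the membrane scaffold protein KIDINS220, under a Tet-on promoter. The Dox(+) group of 3 samples received 500 ng/mL doxycycline for 24 h, which switches the fusion on, and the Dox(-) group of 3 samples received none. No group without the fusion construct was analysed here, so doxycycline itself and the fusion cannot be told apart.

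The array codes in the titles start with EA15 or EA20. Replicate 1 of each group lies in EA15 (2 arrays) and replicates 2 and 3 in EA20 (4 arrays), and values are given below in the order of replicates 1, 2 and 3. What the codes stand for is not stated, and neither is whether samples came from separate cultures. A p-value therefore reflects array-to-array spread, part or all of which may be technical. Doxycycline was tested within the array sets with limma on log2(signal + 16), adjusted over all genes (Benjamini-Hochberg, adjusted p under 0.05 called). Of the transduced genes, one of 2 Pax5 probe sets read 119, 94.5 and 94.2 in Dox(+) cells, against 15.6, 3.76 and 20.3 in Dox(-) cells (log2 difference 2.06, SE 0.37, limma adjusted p 0.12). The other Pax5 probe set differed by 0.21 (SE 0.40) and the 4 Kidins220 probe sets by -0.08 to 0.26. These Pax5 and Kidins220 values were fitted and adjusted over all probe sets but the controls, not over genes. Which of these probe sets read the fusion is not known here. The Ba/F3 markers Il3ra, Csf2rb, Csf2rb2 and Ptprc were bright, while Kit and Cd34 were dim, meaning a mean signal under the 40th percentile of all genes (52.4). The 3' to 5' signal ratio of the Gapdh controls was 0.656 to 0.688 in Dox(+) and 0.637 to 0.684 in Dox(-) arrays.

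Type I interferons bind a receptor whose signal brings a complex with STAT2 and IRF9 to the interferon-stimulated response element (ISRE) of antiviral genes. Interferon-gamma acts at the GAS element and raises IRF1, NLRC5 and CIITA, which drive MHC class I and class II genes. Class I molecules are loaded with peptides that TAP1 and TAP2 pump into the endoplasmic reticulum, where tapasin (Tapbp) bridges them to the transporter and ERAP1 trims the peptides. In Ba/F3 cells the pathway runs beside the STAT5 signal of interleukin-3.

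The promoters of the genes on which the results below turn are shown as the 250 bases before the RefSeq gene start (build GRCm38.p6), 5′ to 3′ on the strand of the gene. Tapbp, B2m and Stat2 are shown because the differences between the array sets and the smallest doxycycline p involve them, and Ifit2 beside its chromosomal neighbour Ifit3, which was dim. Capitals mark the ISRE core GAAANNGAAA and the GAS core TTCNNNGAA, searched on both strands.
Tapbp, chr17:33919228-33919477, plus strand: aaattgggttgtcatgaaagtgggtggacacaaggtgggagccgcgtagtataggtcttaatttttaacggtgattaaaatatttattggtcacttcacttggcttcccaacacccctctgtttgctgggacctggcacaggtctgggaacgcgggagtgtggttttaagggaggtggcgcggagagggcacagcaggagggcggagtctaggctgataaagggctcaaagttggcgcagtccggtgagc
B2m, chr2:122147437-122147686, plus strand: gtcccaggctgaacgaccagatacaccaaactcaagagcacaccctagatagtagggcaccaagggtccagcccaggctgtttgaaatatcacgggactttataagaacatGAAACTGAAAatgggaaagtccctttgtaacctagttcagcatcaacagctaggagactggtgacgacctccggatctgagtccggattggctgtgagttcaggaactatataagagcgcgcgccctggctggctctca
Stat2, chr10:128270248-128270497, plus strand: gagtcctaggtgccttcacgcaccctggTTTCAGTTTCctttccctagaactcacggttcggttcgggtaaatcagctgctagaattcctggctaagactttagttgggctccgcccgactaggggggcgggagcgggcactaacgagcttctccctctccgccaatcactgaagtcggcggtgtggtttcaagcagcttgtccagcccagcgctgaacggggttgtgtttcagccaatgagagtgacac
Ifit2, chr19:34550444-34550693, plus strand: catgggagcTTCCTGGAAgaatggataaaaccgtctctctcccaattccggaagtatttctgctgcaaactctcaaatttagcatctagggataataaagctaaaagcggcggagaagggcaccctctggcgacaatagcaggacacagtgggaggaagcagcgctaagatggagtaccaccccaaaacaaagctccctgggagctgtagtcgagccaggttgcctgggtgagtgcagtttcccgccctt
Ifit3, chr19:34583279-34583528, plus strand: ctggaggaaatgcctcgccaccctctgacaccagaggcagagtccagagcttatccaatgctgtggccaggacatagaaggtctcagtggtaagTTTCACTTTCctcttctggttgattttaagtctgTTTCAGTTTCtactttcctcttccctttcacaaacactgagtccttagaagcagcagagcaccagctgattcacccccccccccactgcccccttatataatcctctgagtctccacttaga

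The table of promoters held 28 windows for 25 of the listed genes. An ISRE core lay in 11 of the 28 windows, each of a different gene, against 2.98% of all 32851 windows. Isg15, which was not measured, is among these 11. A GAS core lay in 4 of the 28 (Bst2, Ifit2, Irf1 and Oas1a), against 7.02% of all windows. In Bst2 the 2 motifs overlap. The B2m core lies at -139 to -130 from the start and that of Stat2 at -222 to -213, while the Ifit3 window holds 2 ISRE cores. The second Ifit2 window and the Tapbp window hold neither motif. Such a match describes letters in a window and does not show a bound site.

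None of the interferon response and antigen presentation genes passed the test for doxycycline. The median log2 difference was 0.09 over the 24 interferon-induced genes (18 positive, 6 negative) and -0.01 over the 8 MHC pathway genes (4 positive, 4 negative), beside 0.00 over all genes tested. Limma called 0 of the 32 genes, where 0.198% of all genes tested were called (27 higher, 9 lower). At an unadjusted limma p under 0.05 there were 2 of 32 (6.25%), against 11.1% of all genes. In the EA20 arrays alone limma called 0 of the 32, against 0.412% of all genes. Within EA20 the medians were 0.12 for the interferon-induced and 0.03 for the MHC pathway genes, and within EA15, with 1 array per group, -0.05 and -0.08. As these are bulk samples, fewer expressing cells and less RNA per cell cannot be told apart.

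**Figure D1:**
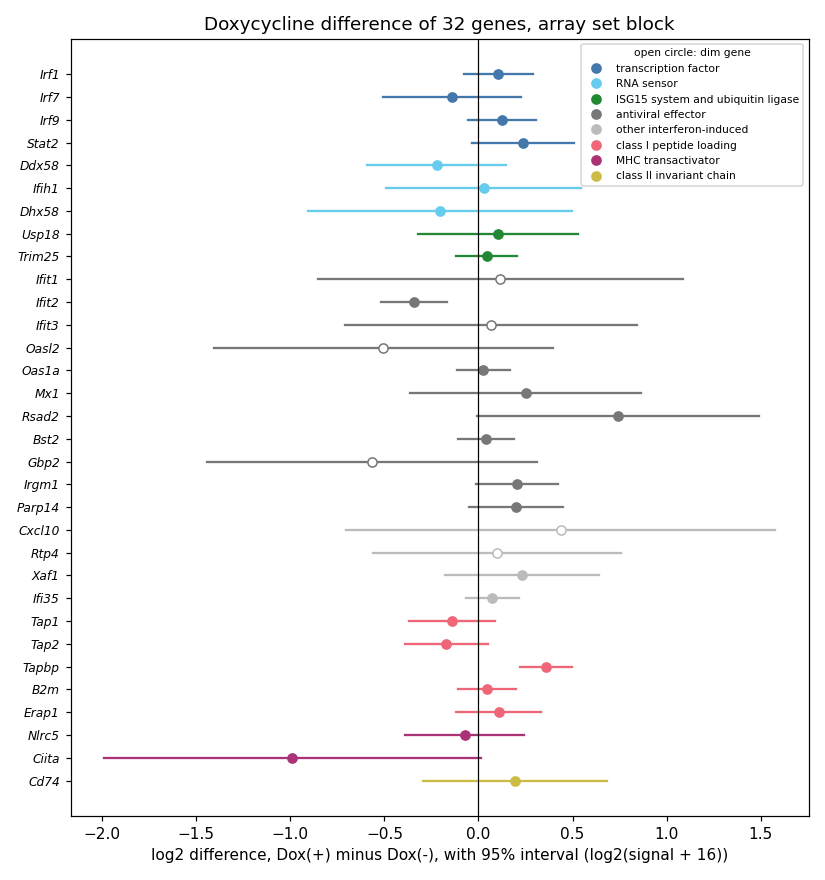
Log2 difference between Dox(+) and Dox(-) arrays (horizontal axis, fitted within the array sets on log2(signal + 16)) for the 32 genes measured, coloured by role. Points are fitted differences, bars their 95% intervals, and open circles dim genes. The bars of Tapbp (0.22 to 0.49) and Ifit2 (-0.52 to -0.17) lie wholly on one side of 0, while those of the other 30 genes include it.

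Of the class I peptide-loading genes, and of all 32, Tapbp had the smallest p. It had signals of 2103, 4456 and 4656 in Dox(+) cells, against 1765, 3442 and 3393 in Dox(-) cells. Within each array set every Dox(+) array was higher, although the groups overlap across sets. The fitted fold was 1.28 (95% interval 1.17 to 1.41, log2 difference 0.36, SE 0.06), ranking 52 of 18193 genes by p, but the limma adjusted p was 0.073 and the test was not passed. When dim genes were left out the adjusted p was 0.030, and over the 18 alternatives it ran from 0.030 to 1.0, the highest being without the array set term. The second Tapbp probe set gave a log2 difference of 0.44 (SE 0.08). The log2 difference of Tapbp was 0.25 in EA15 and 0.41 in EA20.

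The transporter subunits did not share this. Tap2 had signals of 3192, 8827 and 9443 in Dox(+) cells, against 4437, 9796 and 8752 in Dox(-) cells. The Dox(+) array was the lower one in EA15, and the groups overlap in EA20 (log2 difference -0.17, SE 0.10). Tap1 had 606, 1574 and 1911 in Dox(+) cells, against 799, 1710 and 1806 in Dox(-) cells, with the same pattern (-0.14, SE 0.10). The other Tap1 probe sets, all of lower signal, differed by 0.07, -0.01 and 0.26, and the mean of all Tap1 probe sets by 0.04. B2m, the light chain of class I, had 11333, 22297 and 21450 in Dox(+) cells, against 11487, 20439 and 20995 in Dox(-) cells, a difference of 0.05 (95% interval -0.11 to 0.20). Erap1 had 503, 541 and 480 in Dox(+) cells, against 490, 454 and 465 in Dox(-) cells. Its Dox(+) arrays were the higher ones within both sets, by 0.11 (SE 0.10). Nlrc5, the transactivator of class I genes, was at -0.07 (SE 0.14).

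The class II genes among the 34 were Ciita and Cd74, and neither passed. Ciita, the master regulator of class II, had 65.7, 37.4 and 6.72 in Dox(+) cells, against 73.5, 91.9 and 64.1 in Dox(-) cells. The Dox(+) arrays were lower within both sets, the log2 difference was -0.99 (95% interval -1.99 to 0.01), and it did not pass (limma adjusted p 0.46). The other Ciita probe sets, both dim, differed by -0.23 and -0.07. Cd74, the invariant chain, had 280.5, 126 and 130 in Dox(+) cells, against 186, 138 and 116 in Dox(-) cells. The highest value is the Dox(+) array of EA15, and the EA20 groups overlap.

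Among the antiviral effectors, Ifit2 and Rsad2 were the genes whose 3 Dox(+) arrays lay apart from the 3 Dox(-) arrays. Ifit2, which binds viral RNA and restrains translation, had signals of 692, 650 and 673 in Dox(+) cells, against 823, 872 and 878 in Dox(-) cells. Means were 672 ± 20.9 in Dox(+) and 857 ± 30.2 in Dox(-) cells (SD, n = 3 arrays each), a fold of 0.787 (95% interval 0.697 to 0.889). The limma adjusted p was 0.15, and over the 18 alternatives it ran from 0.082 to 1.0, so Ifit2 passed in none. Rsad2, which encodes viperin, had 110, 116 and 59.6 in Dox(+) cells, against 52.6, 55.9 and 38.2 in Dox(-) cells. Its lowest Dox(+) array lies just above the highest Dox(-) array, near the limit of dim genes. The fold was 1.67 (95% interval 0.995 to 2.81, limma adjusted p 0.46), and the 2 dimmer probe sets of Rsad2 differed by 0.66 and 0.12 on the log2 scale. Groups lay apart in this way upwards in 1 gene of 32 (3.12%) and downwards in 1, against 3.84% and 3.06% of all genes.

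**Figure D2:**
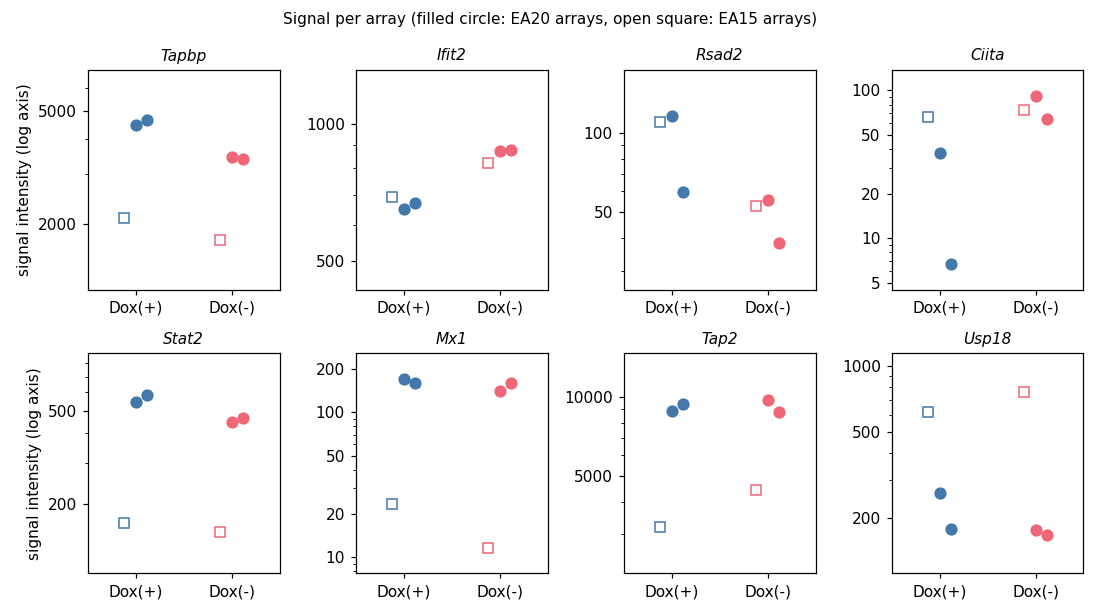
Signal intensity per array (log axis) for 8 genes, with Dox(+) left of Dox(-) in each panel, filled circles for the EA20 arrays and open squares for those of EA15. In Ifit2 and Rsad2 the groups do not overlap. In Tapbp, Stat2, Mx1, Tap2 and Usp18 the array sets lie farther apart than the groups.

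The other effectors did not pass either. Irgm1, an immunity-related GTPase, had 846, 825 and 721 in Dox(+) cells, against 731, 608 and 731 in Dox(-) cells, with overlap in EA20 (log2 difference 0.21, SE 0.10). Parp14, an ADP-ribosyltransferase, had 428, 732 and 729 in Dox(+) cells, against 459, 566 and 572 in Dox(-) cells. It was higher with doxycycline in EA20 and lower in EA15 (0.20, SE 0.11). The second Parp14 probe set, which was dim, was higher with doxycycline in EA15 too (35.7 against 13.1, log2 difference over both sets 0.74, SE 0.40). The 2'-5' oligoadenylate synthetase gene Oas1a differed by 0.03 (95% interval -0.12 to 0.17), and Bst2, which encodes tetherin, by 0.04 (-0.11 to 0.19). Mx1, a dynamin-like GTPase, had 23.3, 169.6 and 158 in Dox(+) cells, against 11.6, 139.5 and 159.7 in Dox(-) cells. The array sets lie far apart and the EA20 groups overlap (0.25, SE 0.27). Ifit1, Ifit3, Oasl2 and Gbp2 were dim, with log2 differences of -0.57 to 0.12 and standard errors of at least 0.34.

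The transcription factors of the interferon signal had log2 differences of -0.14 to 0.24, none past the test. Stat2 had 166, 548 and 585 in Dox(+) cells, against 152, 449 and 468 in Dox(-) cells. The Dox(+) arrays were higher within both sets, by 0.24 on the log2 scale (95% interval -0.03 to 0.51). Irf1 had 642, 934 and 862 in Dox(+) cells, against 639, 787 and 821 in Dox(-) cells, in the same order but nearly equal in EA15 (0.11, SE 0.08). Irf9, the partner of STAT2, had 617, 847 and 867 in Dox(+) cells, against 619, 745 and 754 in Dox(-) cells, higher in EA20 and about level in EA15 (0.12, SE 0.08). Irf7, the amplifier of type I interferon, differed by -0.14 (SE 0.16). Of the RNA sensors, Dhx58 had 52.0, 38.0 and 56.6 in Dox(+) cells, against 55.2, 60.3 and 59.2 in Dox(-) cells, lower within both sets (-0.20, SE 0.31). Ifih1 differed by 0.03 (SE 0.23) and Ddx58 by -0.22 (SE 0.16). The other Ddx58 probe sets differed by 0.05 and 0.11.

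Of the remaining genes, Usp18, which removes ISG15 and dampens the receptor, had 619, 261 and 179 in Dox(+) cells, against 764, 177 and 167 in Dox(-) cells. The Dox(+) arrays were lower in EA15 and higher in EA20 (0.10, SE 0.19). Trim25, the ubiquitin ligase of the RNA-sensing pathway, had 3270, 4639 and 4685 in Dox(+) cells, against 3628, 4359 and 4103 in Dox(-) cells. It was lower with doxycycline in EA15 and higher in EA20 (0.04, SE 0.07). Ifi35 had 3265, 2868 and 2670 in Dox(+) cells, against 3341, 2534 and 2532 in Dox(-) cells. It was again lower with doxycycline in EA15 and higher in EA20 (0.07, SE 0.06). The other Ifi35 probe sets differed by -0.10 and -0.02. The probe set at -0.10 had 1020, 725 and 732 in Dox(+) cells, against 1017, 825 and 794 in Dox(-) cells. It was about level in EA15 and lower with doxycycline in EA20. That at -0.02 was lower in EA15, with overlap in EA20. The pro-apoptotic Xaf1 was at 0.23 (SE 0.18). The chemokine gene Cxcl10 and Rtp4 were dim, at 0.44 (SE 0.50) and 0.10 (SE 0.29). In all, 5 of 32 genes (15.6%) were higher with doxycycline in every comparison within both sets (Irf1, Stat2, Rsad2, Tapbp and Erap1), against 12.6% of all genes. Another 3 (9.38%) were lower (Ifit2, Dhx58 and Ciita), against 11.2%. These orders hold for the probe set used. In EA15 a second probe set was lower with doxycycline in Stat2 (135 against 140) and Erap1 (61.2 against 72.2). The other Dhx58 probe sets were higher there (67.1 against 51.6 and 6.69 against 4.38), as was a further Ciita probe set (6.95 against 5.01). In EA20 the groups overlap in the other Rsad2 and Ciita probe sets. All these further probe sets of Dhx58, Ciita and Rsad2 were dim. The second Tapbp probe set kept the order. Of the 15 genes with several probe sets, 10 had the same sign in all of them and 5 did not.

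**Figure D3:**
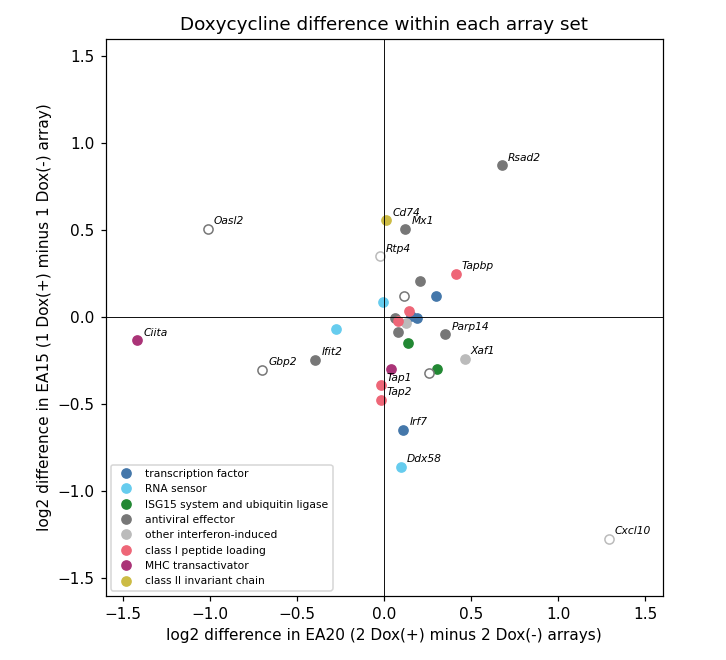
Log2 difference between Dox(+) and Dox(-) arrays in EA20 (horizontal axis, 2 arrays per group) against that in EA15 (vertical axis, 1 array per group), one point per gene, coloured by role, with dim genes open. Tapbp and Rsad2 lie above 0 in both sets and Ifit2 below 0 in both, while Ddx58 is at -0.86 in EA15 and 0.10 in EA20, and dim Cxcl10 at -1.27 and 1.29.

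Whether the response differed between the array sets was tested with an interaction term, whose spread comes from the EA20 arrays only. Limma called 0 of the 32 genes, with 0% of all genes called. At an unadjusted limma p under 0.05 there were 6 of 32 (18.8%), against 6.72% of all genes: Irf7, Cxcl10, Ddx58, Parp14, Trim25 and Tap2. In each of these the log2 difference of the probe set used was below 0 in EA15 and higher in EA20. The second Parp14 probe set, which was dim, was instead higher with doxycycline in EA15. Ddx58, the gene of the sensor RIG-I, has several probe sets, which disagree. A dimmer probe set had 104, 258 and 285 in Dox(+) cells, against 144, 204 and 237 in Dox(-) cells (log2 difference 0.05). It was likewise lower with doxycycline in EA15 and higher in EA20, but its EA15 arrays lay below its EA20 arrays. The dimmest went the other way, with 65.6, 93.8 and 85.6 in Dox(+) cells, against 37.2, 97.4 and 104 (0.11). The probe set used had 823, 1253 and 1279 in Dox(+) cells, against 1506, 1168 and 1199 in Dox(-) cells. The Dox(-) array of EA15 is the highest and the Dox(+) array of EA15 the lowest, and the interaction was 0.96 (SE 0.12, limma adjusted p 0.14).

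More of the genes passed between the array sets than with doxycycline. Between EA20 and EA15, 10 of the 32 genes (31.2%) were higher and 3 (9.38%) lower in EA20 (limma adjusted p under 0.05), against 17.3% higher and 16.3% lower of all genes. Of the class I loading genes, 4 were among the higher ones, with Tap1 at 2.47-fold, Tap2 at 2.44-fold, Tapbp at 2.04-fold and B2m at 1.86-fold, while Erap1 was at 0.975-fold. The second Erap1 probe set was higher in EA20 (log2 difference 1.15, limma adjusted p 0.0044 over all probe sets), so the probe sets of Erap1 disagree. Tap2 averaged 9204 ± 501 in EA20 (SD, n = 4) and 3814 in EA15 (n = 2). The limma adjusted p of these 4 genes was 1.5e-05 or lower. Nlrc5 did not pass (log2 difference 0.25, SE 0.15), and Cd74 was lower in EA20 (0.586-fold).

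Of the interferon-induced genes, Stat2 averaged 512 ± 64.8 in EA20 and 159 in EA15 (log2 difference 1.59, limma adjusted p 1.3e-05). Mx1 had 157 ± 12.6 in EA20 and 17.5 in EA15 (5.23-fold, limma adjusted p 1.5e-04). Usp18 ran the other way, with 196 ± 43.4 in EA20 and 692 in EA15 (0.297-fold, limma adjusted p 1.0e-04). Smaller differences passed for Irf1, Irf9, Parp14 and Trim25, which were higher in EA20, and Ifi35, which was lower. Ifit2, Oas1a and Bst2 had log2 differences of 0.01 to 0.03 between the sets. By class, 4 of the 8 MHC pathway genes were higher and 1 lower in EA20 (median log2 difference 0.58), against 6 higher and 2 lower of the 24 interferon-induced genes (median 0.02). Over all genes that median was 0.04, with 17.3% called higher and 16.3% lower.

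**Figure D4:**
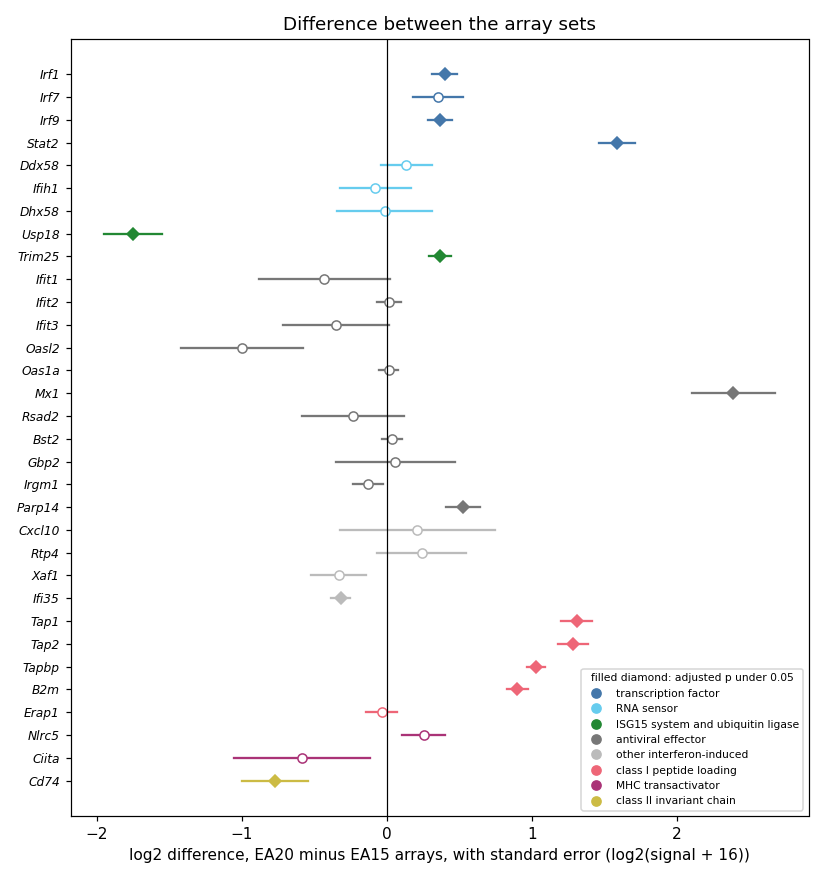
Log2 difference between EA20 and EA15 arrays (horizontal axis, same fit) for the 32 genes, coloured by role, with standard errors as bars and filled diamonds where the limma adjusted p was under 0.05. Mx1 (2.39), Stat2 (1.59), Tap1 (1.31) and Tap2 (1.29) lie farthest to the right and Usp18 (-1.75) farthest to the left.

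Centring each array on its median lowered every difference between the sets by 0.18. Under it Irf1, Irf9, Parp14 and Trim25 no longer passed, and Irgm1 passed as lower. Without replicate 1 of the Dox(+) group these 4 genes were also lost, as was Cd74. Cd74 was lost as well without replicate 2 or 3 of the Dox(+) group or replicate 3 of the Dox(-) group, and Ifi35 without replicate 1 of the Dox(-) group. Ddx58 passed as lower in EA20 without replicate 1 of the Dox(+) group (log2 difference -0.34) and as higher without replicate 1 of the Dox(-) group (0.61). In that last fit Irf7 and Cxcl10 also passed as higher and Oasl2 as lower, giving 16 genes in place of 13. With the mean of all probe sets of a gene, Tap1 (log2 difference 0.65, limma adjusted p 0.066) and Parp14 (0.59, limma adjusted p 0.064) were lost. Ddx58 (0.60, limma adjusted p 0.0063) and Erap1 (0.55, limma adjusted p 0.013) then passed as higher. Stat2, Mx1, Usp18, Tap2, Tapbp and B2m passed in each of these settings. Some markers differed between the sets too, but not all alike. Limma called 4 of 6 Ba/F3 markers higher in EA20 (adjusted p under 0.05), against 17.3% of all genes. It called 3 of 5 macrophage markers higher and 1 lower. Of the B cell, T cell and dendritic cell markers it called 1 each as higher, and of the fibroblast markers 0. The T cell markers ran from -0.52 to 3.26 on the log2 scale (median 0.05), and the B cell median was 0.005. Csf2rb had 21095, 22447, 20153 and 20490 in the EA20 arrays, against 9119 and 8398 in those of EA15. The summed signal of the 5 macrophage markers was 1648 to 1855 in EA20 and 1241 to 1407 in EA15, and that of the 4 B cell markers measured 669 to 910 in EA20 and 580 to 701 in EA15. That of the 4 T cell markers measured, 2 of them dim, was 391 to 460 in EA20 and 144 to 164 in EA15. The 5 dendritic cell markers, 4 of them dim, summed to 293 to 361 in EA20 and 182 to 217 in EA15, and the 4 fibroblast markers, all dim, to 91.6 to 134 in EA20 and 65.1 to 85.6 in EA15. Their part in the difference between the sets was not tested.

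The rest of the pathway was read from further lists, none of which held a gene called with doxycycline within the array sets (limma, 0 of 114 genes measured, against 0.198% of all genes). At an unadjusted limma p under 0.05 there were 14 of the 114 (12.3%), against 11.1% of all genes. Of 9 interferon genes 5 were measured, 4 of them dim (Ifna1, Ifna2, Ifna4 and Ifng), and Ifnb1 had 56.2, 50.2 and 33.6 in Dox(+) cells, against 33.9, 39.6 and 103.5 in Dox(-) cells. Of 25 receptor and signalling genes measured, 14 were positive (median 0.05). Jak2, the kinase of the interferon-gamma and interleukin-3 receptors, had 1105, 3453 and 3500 in Dox(+) cells, against 1141, 2032 and 2137 in Dox(-) cells. It was higher in EA20 and slightly lower in EA15 (fold 1.39, 95% interval 1.12 to 1.72, limma adjusted p 0.24). Others with small p were Il10rb at 0.21 (SE 0.07), the repressor Irf2 at 0.33 (SE 0.11) and the DNA sensor gene Cgas at -0.25 (SE 0.09). In the EA20 arrays alone, with 2 arrays per group, limma called 2 of these 25 genes, against 0.412% of all genes. They were Jak2 (log2 difference 0.73, limma adjusted p 0.013) and Ifngr1 (0.55, limma adjusted p 0.035), both higher with doxycycline. In EA15 both were lower (-0.05 and -0.21). Ifngr1 encodes the ligand-binding chain of the interferon-gamma receptor and was chosen after its values were seen. It had 424, 5166 and 4902 in Dox(+) cells, against 494, 3285 and 3567 in Dox(-) cells, and was 8.80-fold higher in EA20 than in EA15.

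Of 57 other interferon-induced genes measured, 35 were positive (median 0.06), where 9224 of all 18193 genes were. The array sets differed: 20 of the 57 were positive in EA15 (median -0.06) and 40 in EA20 (median 0.17). The 4 with the smallest p in the fit over both sets were above 0. These were the GTPase genes Irgm2 at 0.29 (SE 0.09), Igtp at 0.23 (SE 0.09) and Gbp7 at 0.24 (SE 0.09), and the ligase gene Herc6 at 0.30 (SE 0.12). Irgm2 had 459, 669 and 668 in Dox(+) cells, against 412, 530 and 509 in Dox(-) cells, higher within both sets. Of 12 class I and immunoproteasome genes, 8 were positive (median 0.05). The class Ib gene H2-M3 had 733, 714 and 681 in Dox(+) cells, against 632, 511 and 565 in Dox(-) cells, with no overlap (log2 difference 0.32, SE 0.09, limma adjusted p 0.23). Psme1, a proteasome activator subunit, was at 0.22 (SE 0.06), H2-D1 at 0.12 (SE 0.06) and the chaperone gene Calr at 0.14 (SE 0.07).

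Of 15 class II genes measured, 12 were positive (median 0.12) and 5 were dim. In EA15 8 of the 15 were positive, and in EA20 11. Of the 10 that were not dim, 3 were positive in EA15 and 9 in EA20. H2-Ob, a chain of the peptide-editing inhibitor H2-O, had 197, 2760 and 3027 in Dox(+) cells, against 560.5, 3337 and 3737 in Dox(-) cells. It was lower with doxycycline within both sets (log2 difference -0.67, SE 0.20, limma adjusted p 0.25) and far higher in EA20 than in EA15. Its partner H2-Oa was at 0.21 (SE 0.09), Rfxap, part of the complex that binds class II promoters, at 0.14 (SE 0.09), and dim H2-Eb1 at 0.50 (SE 0.34).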

How the data were processed

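The authors deposited linear signal intensities per probe set of 6 Affymetrix mouse arrays, and the submitters' processing notes name Affymetrix Expression Console without an algorithm or version. Every array's mean is 500 once 2% of probe sets at either end are dropped, so shifts in overall RNA per cell are scaled away. Bright and dim rank probe sets by mean signal, which is no measure of relative transcript abundance; no fold between genes was computed. No detection calls were used, and the number of arrays limits the precision.

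Symbols came from the platform annotation (34945 probe sets with 1 symbol, 932 with several, 9160 unnamed). Signals were transformed to log2(signal + 16), which understates changes of dim genes, and no filter was applied. limma 3.58.1 in R 4.3.3 (lmFit, eBayes with a mean-variance trend, two-sided) was fitted over all 18193 genes with doxycycline and array set as terms. The fit was also run on simulated data with independent noise and planted changes larger than those of Tapbp and Ifit2. That run does not speak to changes as small as theirs. An interaction term and 18 alternatives, among them a fit of the EA20 arrays alone, were also run. A threshold of adjusted p under 0.10 was counted apart from these. The genes and lists were chosen with earlier results of these data known. Named with all array values were the 4 brightest genes, the 8 with the smallest p, those in the same order in both sets and those called in any fit, for doxycycline or between the array sets; of each further list, the 4 with the smallest p. Some genes are given by differences or set means only, and Ddx58, Ifnb1, Ifngr1 and Csf2rb were added after their values were seen.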

Additional observations from a re-analysis of the deposited data

How the results depend on the processing

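The log2 differences of Tapbp (0.33 to 0.41) and Ifit2 (-0.40 to -0.32) kept their sign in all 18 alternatives, but several of these could not change it. Dropping the array set term, the mean-variance trend or dim genes leaves the difference itself as it was. The EA20 fit and the fits without an EA15 array share the same difference. The number of listed genes called with doxycycline was 0 in all but 2 settings: it was 1 (Tapbp) when dim genes were left out and 1 at an adjusted p under 0.10. Calls over all genes, 36 in the fit reported, were 0 without the array set term, 0 without the mean-variance trend, 75 in the EA20 arrays alone, 130 without dim genes, 13 with probe sets averaged, 61 and 22 with pseudocounts of 1 and 64, and 95 at an adjusted p under 0.10. Leaving out each array in turn gave 0 to 60, with 0 without Dox(+) replicate 2 or Dox(-) replicate 3. The cause of these changes was not tested, except that fewer tests or fewer arrays enter some of the fits. The median of the MHC pathway genes was 0.053 when probe sets of a gene were averaged. It was -0.073 when those with the suffixes _s_at, _x_at and _a_at, which can match several transcripts, were dropped. That last setting measures 23 of the 32 genes, and 6 of them, not 13, differed between the array sets. Leaving out an array of EA15 leaves the differences of EA20 alone. Replicate numbers follow accession order and pair no samples; the array set term is the only block used.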
